A study of Mus musculus with 32 samples.

Results

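Female C57BL/6 mice, an inbred laboratory strain, were compared on Day 5 after a single intraperitoneal dose of 20 mg/kg cisplatin with female mice of the same strain at Day 0. The comparison used 8 of the 32 kidney RNA libraries, 4 at Day 5 and 4 at Day 0, each a biological replicate from mice acquired at 6 to 8 weeks of age, and was made across all genes and across gene lists. The Day 0 females carry cisplatin as their treatment in the sample labels, whereas the study's text treats Day 0 animals as healthy, and the latter was followed with a dose of 0 mg/kg. Both groups were bulk whole-kidney RNA without a transgene or sorted cells, so fewer cells of a type and less RNA per cell cannot be told apart in any value here. Levels are CPM, counts scaled to a common library total after genes of the mitochondrial genome were removed and adjusted between libraries by the trimmed mean of M-values (TMM).

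Cisplatin is a platinum drug that cross-links DNA and enters the proximal tubule, the nephron segment that reclaims most of the filtrate, through organic cation transporters. Damaged DNA stabilizes p53, a transcription factor whose targets include Cdkn1a (p21, a brake on the cell cycle), Mdm2 (the ligase that degrades p53 itself) and genes of DNA repair and cell death. Injured tubule cells are also known for making Lcn2 (NGAL) and Havcr1 (KIM-1), and for losing transporters.

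Of 16358 genes tested with edgeR's quasi-likelihood test, 45 passed at 0.05 after Benjamini-Hochberg adjustment (0.275%), and only such genes are termed called below. There were 32 called genes that were higher at Day 5 (0.196%) and 13 that were lower (0.0795%), and 40 of them also had an absolute log2 fold change over 1.5 and are termed DEGs (0.245%; 29 higher and 11 lower). Of the 32 genes higher at Day 5, 12 belong to the p53 list, and others include the stress cytokine Gdf15, the drug export pump gene Abcb1b and the quinone reductase Nqo1. The genes lower at Day 5 included the thyroid hormone deiodinase Dio1, the prolactin receptor Prlr, the lactate transporter Slc16a1 and the thermogenic genes Ucp1 and Cox8b. All 45 called genes had groups that did not overlap, with every Day 5 library on the same side of every Day 0 library. That was the case for 821 of all genes in the higher direction (5.02%) and for 579 in the lower direction (3.54%). The plot of log2 fold change against p shows the called genes by their membership of the p53 list.

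**Figure D1:**
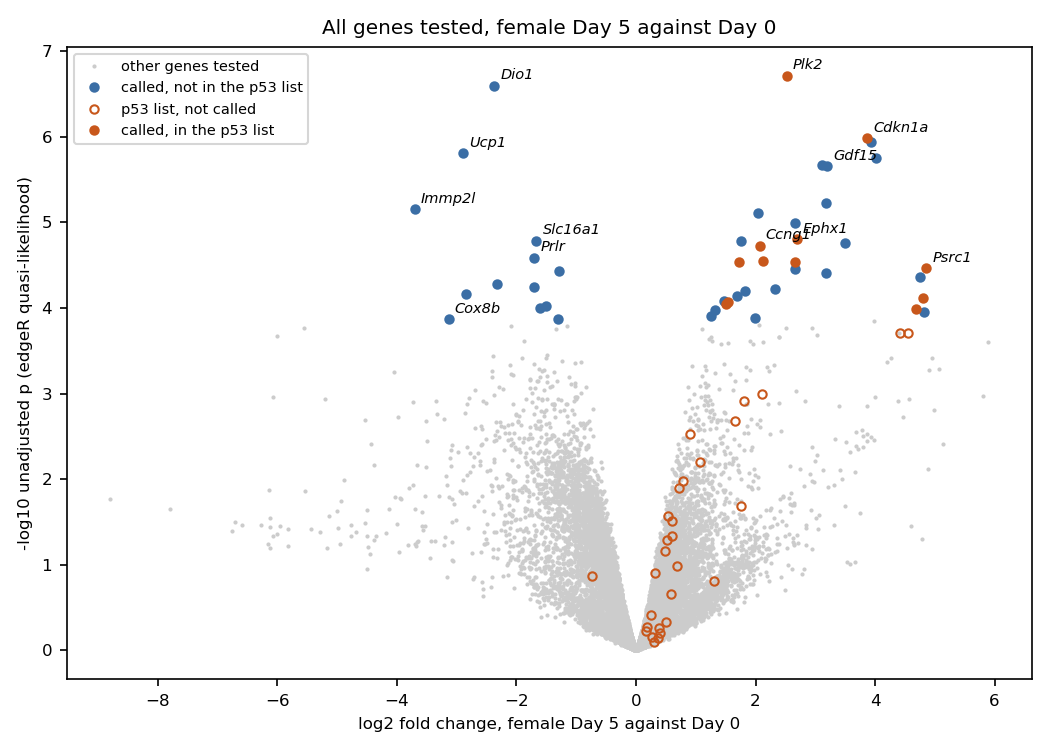
Each point is 1 of the 16358 genes tested, with the log2 fold change of female Day 5 against Day 0 on the horizontal axis and the unadjusted p on a -log10 axis. Filled orange points are the 12 called genes of the p53 list, open orange points its other tested genes, and blue points the other called genes, of which Dio1 (log2 fold change -2.37) lies highest on the left.

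The libraries of the comparison held 18775424 to 35961325 counts, and 3 features of them bear on what follows. The mitochondrial genome took between 4.49% and 19.7% of the counts at Day 0, and between 9.30% and 77.9% at Day 5, with the highest share in Day 5 replicate 2. This left 5340637 nuclear counts in that library, against 17028969 to 34345113 in the others. On the first principal component of log2 CPM (50.3% of the variance), Day 0 replicate 4 lay at 44.3, inside the Day 5 range of 27.2 to 64.4, and its median correlation was 0.936 with the Day 5 libraries and 0.895 with its own group. Without this library 2013 of 16559 genes were called (12.2%), 785 higher and 1228 lower. Each of the other libraries, left out in turn, gave 8 to 50 called genes, the lowest without Day 5 replicate 3. Over the 8 such fits all 45 genes kept their direction, an outcome that their groups without overlap all but fix in advance. In every fit 8 genes were called, namely Cdkn1a, Plk2, Gdf15, Abcb1b, Inka2, 1700007K13Rik, Dio1 and Ucp1, while the median called gene passed in 3. Finally, Y-linked genes had 5 to 221 counts in the 4 libraries labelled female Day 0 and 0 counts in those of Day 5, while Xist had 1323 to 10905 counts in all 8.

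The kidney label was checked by segment markers, and these were present in all 8 libraries. Umod (uromodulin, thick ascending limb) was at 367 to 1976 CPM, Slc34a1 (proximal phosphate transporter) at 1241 to 7543 CPM and Aqp2 (collecting duct water channel) at 547 to 1509 CPM. Markers of neighbouring or other tissues differed between libraries. The 23 hepatocyte markers summed to 18943 CPM in Day 0 replicate 2 and to between 220 and 856 CPM in the other 7 libraries. The 12 adrenal cortex markers summed to 133 to 694 CPM at Day 0 and 875 to 2182 CPM at Day 5, and none of the 12 was at 0 throughout. Cyp21a1, the steroid 21-hydroxylase that defines the adrenal cortex, was at 0, 135, 5.77 and 0.316 CPM at Day 0 and at 532, 227, 470.5 and 459 CPM at Day 5. The 10 adrenal medulla markers summed to 324 to 362 CPM at Day 0 and 180 to 432 CPM at Day 5, so the groups overlapped. Of these, chromogranin A (Chga) was at 0 to 6.33 CPM at Day 0 and 16.2 to 81.2 CPM at Day 5. Erythroid markers summed to 615 to 3446 CPM at Day 0 and to 92.3 to 166 CPM at Day 5, apart from Day 5 replicate 2 at 2014 CPM. With all libraries no gene of the hepatocyte, adrenal or erythroid lists was called. Of 11 tested cortex and 9 tested medulla genes, 7 and 6 had groups that did not overlap in the higher direction and 0 in the lower. Of all genes 5.02% and 3.54% did so. Leaving out Day 0 replicate 4 gave 2 of 11 cortex and 3 of 10 medulla genes called higher, and 0 and 1 lower. In that fit 12.2% of all genes were called in either direction. The part of other tissues in the results below was not tested.

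**Figure D2:**
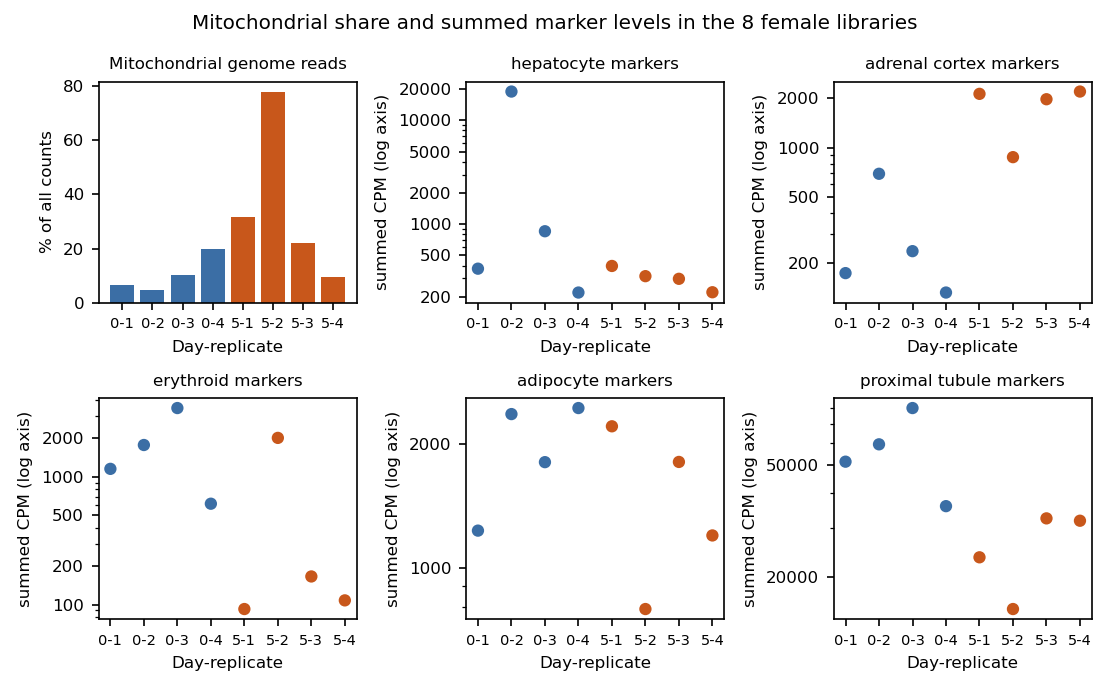
The bars give the percent of all counts on the mitochondrial genome, and the points the summed CPM of marker lists on log axes, for the 8 female libraries written as day and replicate (blue, Day 0; orange, Day 5). Day 5 replicate 2 has the tallest bar (77.9%), Day 0 replicate 2 stands apart in hepatocyte markers (18943 CPM), and all Day 5 libraries lie above all Day 0 libraries in adrenal cortex markers.

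The p53 list held more called genes than any other list. Of the 41 tested genes in a list of 43 p53 targets and DNA repair genes, 12 were called higher and 0 lower, 23 had groups that did not overlap in the higher direction, and 40 had a log2 fold change above 0, which 52.7% of all genes had. The list's median log2 fold change was 0.91, against 0.04 over all genes, and was 1.36 without Day 0 replicate 4. That library was the highest of Day 0 for Plk2, Mdm2, Trp53inp1, Eda2r, Ddias and Psrc1, and stayed below every Day 5 library for each of the 12 called genes. Cdkn1a was at 20.5, 24.4, 9.55 and 12.9 CPM at Day 0 and at 375, 140.3, 238 and 234 CPM at Day 5. The lowest Day 5 library was thus above the highest Day 0 library. Its log2 fold change was 3.87 ± 0.40 (SE; edgeR adjusted p = 0.00454), and it was called in each of the 8 fits that left out a library. Plk2, a polo-like kinase induced by p53, had the most even values, with 7.06, 7.73, 8.06 and 9.98 CPM at Day 0 and 48.4, 40.2, 43.6 and 56.4 CPM at Day 5. Its log2 fold change of 2.52 ± 0.22 (SE; edgeR adjusted p = 0.00206) was likewise called in all 8 of those fits.

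Among p53 targets with high kidney levels, Ccng1 (cyclin G1, a partner of the Mdm2 loop) was at 132, 129, 203 and 175.5 CPM at Day 0 and at 864, 463, 696.5 and 657 CPM at Day 5. Mdm2 was at 32.8, 25.1, 26.5 and 38.0 CPM at Day 0 and rose to 134, 68.7, 91.6 and 111 CPM. The microsomal epoxide hydrolase Ephx1 was at 76.7, 89.6, 32.9 and 71.6 CPM at Day 0 and at 463, 249.5, 545 and 491 CPM at Day 5. Day 5 replicate 2 was the lowest Day 5 library for each of these, and still lay above every Day 0 library. The log2 fold changes were 2.07 ± 0.29, 1.73 ± 0.25 and 2.69 ± 0.37 (SE), with edgeR adjusted p of 0.0180, 0.0226 and 0.0178. Phlda3, a repressor of Akt signalling, rose by 1.54 ± 0.25 and Zmat3, an RNA-binding p53 target, by 1.51 ± 0.25 on the log2 scale. Trp53inp1, which promotes p53-dependent cell death and autophagy, rose by 2.12 ± 0.31, and the nuclease gene Aen by 2.66 ± 0.39.

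A second set of p53 targets was almost silent before the drug. Psrc1, a spindle protein gene, was at 0.702, 0.734, 0 and 0.844 CPM at Day 0 (17, 21, 0 and 24 counts) and at 29.4, 9.94, 16.5 and 12.7 CPM at Day 5. Eda2r, the X-linked ectodysplasin A2 receptor, was at 0.330, 0.455, 0 and 1.23 CPM at Day 0 and at 24.6, 13.3, 8.85 and 12.8 CPM at Day 5. Ddias, an inhibitor of apoptosis after DNA damage, was at 0.165, 0.140, 0 and 0.598 CPM at Day 0 and at 8.53, 5.21, 7.26 and 3.96 CPM at Day 5. In all 3 genes Day 0 replicate 3 had no count, and the gap between the groups was wide. Their log2 fold changes were 4.85 ± 0.72, 4.81 ± 0.78 and 4.69 ± 0.79 (SE), with edgeR adjusted p of 0.0248, 0.0374 and 0.0428. These 3 calls held in 3, 2 and 2 of the 8 fits with a library left out. Gtse1 and Ckap2, p53-linked mitotic genes, had similar sizes (4.42 ± 0.80 and 4.55 ± 0.83 on the log2 scale), but an adjusted p of 0.0567 each did not pass. The apoptosis gene Bbc3 (Puma) had a log2 fold change of 2.11 ± 0.47 and the death receptor Tnfrsf10b 1.80 ± 0.42, both with an adjusted p of 0.117. Bax, the effector of mitochondrial apoptosis, was at 49.6 to 125.5 CPM at Day 0 and 68.2 to 142 CPM at Day 5, with overlapping groups and a log2 fold change of 0.17 ± 0.31 (adjusted p = 0.809).

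Promoter sequence was read because 12 of the 32 genes called higher belong to the p53 list. In the RefSeq promoter windows, which lie mostly upstream of each transcript start (assembly GRCm38.p6), the p53 decamer, of which a p53 response element holds a pair, was found in 2745 of 32851 windows (8.36%). Of the 32 genes called higher 24 had a window, and 7 of those held a decamer (29.2%), while 11 of the 13 genes called lower had a window and 0 held it. Among all tested genes with a window, 992 of 11773 held it (8.43%). Of the 12 p53 list genes called higher 10 had a window, and 4 of those held a decamer (40%). As that list holds known p53 targets, the share among the 24 genes does not stand apart from it. The decamer reads the same on both strands, so a single scan covered both. The following stretches of 30 bases are shown because their genes carried the Day 5 result. The decamer is in capitals, each stretch is given in the direction of its gene, and the coordinates are those of GRCm38:
Cdkn1a, chr17:29090918-29090947, decamer from 51 bases before the start: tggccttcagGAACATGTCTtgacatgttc
Mdm2, chr10:117710925-117710954 on the minus strand, decamer from 186 bases before: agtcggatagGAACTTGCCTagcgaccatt
Ccng1, chr11:40755452-40755481 on the minus strand, from 185 bases before: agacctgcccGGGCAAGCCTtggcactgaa
Aen, chr7:78895927-78895956, from base 10 after the start: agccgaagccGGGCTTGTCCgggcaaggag
Inka2, chr3:105705367-105705396, from 81 bases before: ctgtctgcccGGGCTTGTCTgccagcaggg
Abcb1b, chr5:8797946-8797975, from 191 bases before: gaacacgtaaAGACAAGTCTatgtaaatgt
Cdkn1a held another decamer beginning 73 bases before its start, and 1700007K13Rik held 2. A match in these windows is a description of the letters and not of binding.

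Genes outside the p53 list rose with comparable size. Inka2, an inhibitor of the kinase Pak4, was at 0.950, 1.26, 2.23 and 1.86 CPM at Day 0 and at 32.8, 12.2, 27.0 and 23.4 CPM at Day 5. The uncharacterized gene 1700007K13Rik was at 0.743, 0.979, 0.806 and 0.738 CPM at Day 0 and at 18.0, 5.84, 18.0 and 10.9 CPM at Day 5. The log2 fold changes were 3.93 ± 0.41 and 4.01 ± 0.43 (SE; edgeR adjusted p = 0.00454 for each), the groups did not overlap, and both genes were called in all 8 fits with a library left out. Mab21l3 rose by 3.49 ± 0.48, the zinc finger gene Zfp365 by 4.82 ± 0.83 and the long intergenic RNA Gm42047 by 3.19 ± 0.48 on the log2 scale. Klf10, a TGF-beta inducible transcription factor, rose by 2.32 ± 0.37, the heparan endosulfatase gene Sulf2 by 1.75 ± 0.24, the tubulin gene Tubb6 by 1.47 ± 0.24, the ectonucleotidase gene Entpd1 (CD39) by 1.31 ± 0.22 and Plekhg6 by 1.26 ± 0.22.

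Gdf15, a circulating cytokine that reduces appetite through the brainstem, was at 12.5, 18.9, 10.8 and 20.2 CPM at Day 0 and at 197, 69.6, 167 and 139 CPM at Day 5. The groups did not overlap, and the log2 fold change was 3.20 ± 0.35 (SE; edgeR adjusted p = 0.00454). Lif, an interleukin-6 family cytokine, was at 0.372, 0.385, 0 and 0.527 CPM at Day 0 and at 14.8, 9.47, 7.79 and 4.51 CPM at Day 5. Its log2 fold change was 4.75 ± 0.73 (adjusted p = 0.0275), and it was called in 2 of the 8 fits with a library left out. Tnfrsf12a (Fn14), the receptor of the cytokine TWEAK, was at 12.3 to 23.7 CPM at Day 0 and 43.2 to 119 CPM at Day 5 (log2 fold change 1.99 ± 0.34, adjusted p = 0.0489). Gdf15 is also a member of the list of the integrated stress response. With all libraries it was the only one of that list's 25 tested genes to be called, against 0.275% of all genes. When Day 0 replicate 4 was left out, 3 of the 25 were called higher and 0 lower, against 12.2% of all genes in either direction.

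Single genes of drug handling were called higher, while the list of xenobiotic and steroid metabolism as a whole was not. Of its 51 tested genes 0 were called higher and 1 lower (Acsm1), against 0.275% of all genes. Of the 51, 14 had a log2 fold change above 0, and the median was -0.33 (-0.54, -0.53 and -0.52 without Day 0 replicate 3, Day 0 replicate 4 and Day 5 replicate 4). Leaving out Day 0 replicate 4 gave 3 of 52 called higher and 6 lower, against 12.2% of all genes in either direction. Abcb1b, which encodes a P-glycoprotein drug export pump, was at 15.3, 11.9, 8.87 and 22.8 CPM at Day 0 and at 170.0, 79.5, 120.5 and 137 CPM at Day 5. The log2 fold change was 3.11 ± 0.34 (SE; edgeR adjusted p = 0.00454). With all libraries Abcb1b was the only one of 14 tested genes of cisplatin uptake and export to be called. In the fit without Day 0 replicate 4, 2 of the 14 were called higher and 1 lower. Ces2e, a carboxylesterase, was at 10.3 to 29.8 CPM at Day 0 and 88.5 to 242 CPM at Day 5, with a log2 fold change of 3.18 ± 0.39 (adjusted p = 0.0109). Cbr3, a carbonyl reductase, rose by 2.67 ± 0.40, and the quinone reductase Nqo1, a standard target of Nrf2, by 1.69 ± 0.27 on the log2 scale. Nqo1 was the only one of the 30 tested Nrf2 and glutathione genes to be called with all libraries, against 0.275% of all genes. When Day 0 replicate 4 was left out, 6 of the 30 were called higher and 1 lower, against 12.2% of all genes in either direction. With all libraries 16 of the 30 genes had a log2 fold change above 0, near the 52.7% of all genes. Of the 30, 8 had groups that did not overlap in the higher direction and 1 in the lower, against 5.02% and 3.54% of all genes. The list's median was 0.11 (0.27 without Day 0 replicate 2, and 0.30, -0.05 and -0.0016 without Day 5 replicates 2, 3 and 4). The list's largest positive values that did not pass included those of Srxn1 (1.26 ± 0.23, adjusted p = 0.0583), Gsta1 (3.03 ± 0.55, adjusted p = 0.0578) and Gclc (1.21 ± 0.26, adjusted p = 0.107). Hmox1, heme oxygenase 1, was at 19.4, 16.8, 2.48 and 17.6 CPM at Day 0 and at 45.7, 26.7, 31.1 and 28.4 CPM at Day 5 (log2 fold change 1.23 ± 0.49, adjusted p = 0.280).

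A further set comprised genes that respond to fasting, lipids or glucocorticoids. Fkbp5, a co-chaperone of the glucocorticoid receptor, was at 49.8, 35.6, 25.1 and 29.9 CPM at Day 0 and at 298, 108, 247 and 230.0 CPM at Day 5. Angptl4, an inhibitor of lipoprotein lipase, was at 29.6, 38.1, 23.6 and 30.3 CPM at Day 0 and at 155, 77.8, 138 and 132 CPM at Day 5. Cyp4a10, a fatty acid omega-hydroxylase driven by PPAR-alpha, was at 241, 249.8, 216 and 231 CPM at Day 0 and at 1136, 500.4, 818 and 874 CPM at Day 5. None of the 3 genes had overlapping groups, and their log2 fold changes were 2.65 ± 0.34, 2.05 ± 0.26 and 1.83 ± 0.29 (SE; edgeR adjusted p 0.0138, 0.0114 and 0.0347). In the list of fatty acid oxidation and PPAR targets 2 of 42 tested genes were called higher and 0 lower, against 0.275% of all genes. Of the 42, 7 had groups that did not overlap in the higher direction and 0 in the lower, against 5.02% and 3.54%. Leaving out Day 0 replicate 4 gave 8 of 42 called higher and 1 lower, against 12.2% of all genes in either direction. With all libraries the list's related members Cyp4a14 (1.29 ± 0.32) and Cyp4a31 (1.54 ± 0.29) did not pass, with adjusted p of 0.138 and 0.0607. The list's median was 0.20, with 0.39 without Day 5 replicate 2, 0.12 without Day 0 replicate 3, 0.05 without Day 5 replicate 3 and 0.03 without Day 5 replicate 4. In the glucocorticoid list 2 of 20 tested genes were called, against 0.275% of all genes, with a median of 0.43 (0.65 without Day 0 replicate 2). Of the 20, 7 had groups that did not overlap in the higher direction and 0 in the lower, against 5.02% and 3.54% of all genes. When Day 0 replicate 4 was left out, 7 of the 20 were called higher and 0 lower, against 12.2% of all genes in either direction. The adrenal cortex markers given above were higher in the same Day 5 libraries, and their part in the values of the glucocorticoid list was not tested.

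**Figure D3:**
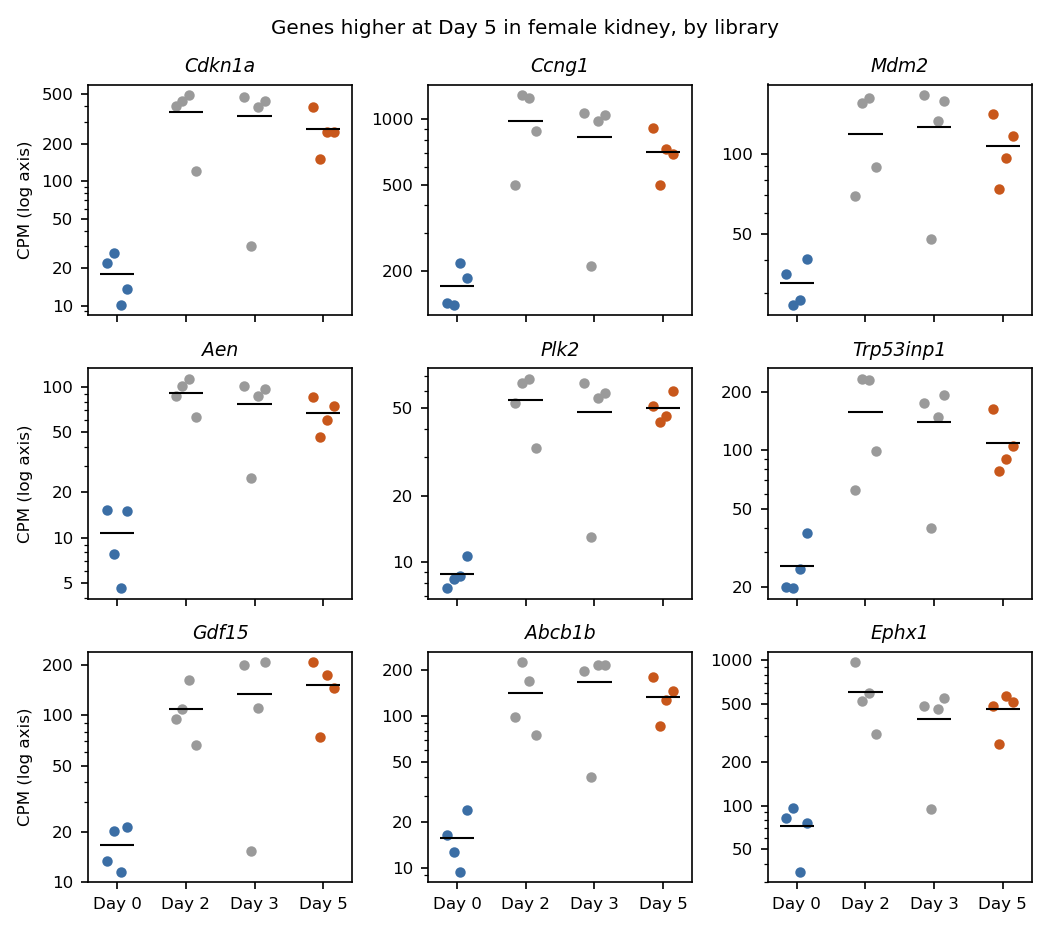
CPM on log axes of 9 genes higher at Day 5, with 1 point per female library at Day 0 (blue), Day 2 and Day 3 (grey) and Day 5 (orange) and a bar at each mean of 4 libraries. All 4 Day 5 points lie above all 4 Day 0 points in each panel, and for Cdkn1a a single Day 3 library lies at 30.1 CPM, far below the other 3.

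The markers of tubule injury that are used most often varied widely between the Day 5 mice. Lcn2 was at 6.36, 7.90, 3.22 and 2.71 CPM at Day 0 and at 148, 50.3, 105 and 16.6 CPM at Day 5. The groups did not overlap, but the Day 5 libraries covered a wide range, and the log2 fold change of 3.98 ± 0.66 (SE) had an adjusted p of 0.0503. Havcr1 was at 0.537, 0.175, 2.11 and 0.0352 CPM at Day 0 and at 18.7, 10.1, 7.43 and 1.87 CPM at Day 5, where the lowest Day 5 library fell below the highest of Day 0 (log2 fold change 3.80 ± 1.04, adjusted p = 0.175). Krt20, a keratin of injured tubules, was at 0 to 1.76 CPM at Day 0 and 5.94 to 48.6 CPM at Day 5 (4.95 ± 0.94, adjusted p = 0.0821). Day 5 replicate 4 had the lowest Lcn2, Havcr1 and Krt20 levels of its group and the lowest mitochondrial share. In the whole list 1 of 29 tested genes was called, Tnfrsf12a, against 0.275% of all genes, and the median log2 fold change was 0.44 (0.25 without Day 5 replicate 1). Of the 29, 8 had groups that did not overlap in the higher direction and 1 in the lower, against 5.02% and 3.54% of all genes. Leaving out Day 0 replicate 4 gave 6 of 30 called higher and 1 lower, against 12.2% of all genes in either direction. Spp1 (osteopontin) was at 1424 to 2089 CPM at Day 0 and 1430 to 3120 CPM at Day 5 (0.29 ± 0.33, adjusted p = 0.690).

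Of 24 tested chemokines and cytokines 1 was called, Lif, against 0.275% of all genes, and 7 had groups that did not overlap in the higher direction, against 5.02%. Without Day 0 replicate 4, 5 of 26 were called higher and 2 lower, against 785 higher and 1228 lower of all 16559 genes. Cxcl1, a neutrophil attractant, was at 0.289, 0.734, 0 and 1.44 CPM at Day 0 and at 8.31, 6.63, 4.29 and 0.825 CPM at Day 5. The groups overlapped through Day 5 replicate 4, and the log2 fold change of 2.97 ± 0.97 had an adjusted p of 0.217. Ccl6, a monocyte attractant, was at 4.78 to 7.97 CPM at Day 0 and at 61.7, 16.9, 15.2 and 8.80 CPM at Day 5 (1.94 ± 0.54, adjusted p = 0.175). Cxcl10 was at 1.80 to 4.20 CPM at Day 0 and 7.83 to 28.4 CPM at Day 5 (2.31 ± 0.47, adjusted p = 0.0900), and Socs3, a feedback inhibitor of STAT3, at 2.73 to 5.14 and 9.35 to 39.7 CPM (2.51 ± 0.45, adjusted p = 0.0540). Tnf, Il1rn and Ccl20 had too few counts to be tested, with at most 12, 32 and 18 counts in any library. Of 29 tested leukocyte genes 0 were called. Leaving out Day 0 replicate 4 gave 0 called higher and 4 lower of 29, against the same shares of all genes. The summed level of the leukocyte genes was 409 to 875 CPM at Day 0 and 265 to 439 CPM at Day 5. The invariant chain gene Cd74 was at 373.5, 450, 356 and 160.3 CPM at Day 0 and 57.6, 178.5, 118 and 88.6 CPM at Day 5 (log2 fold change -1.60 ± 0.40, adjusted p = 0.138).

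Among the genes lower at Day 5, Dio1 had the smallest p. Dio1, the selenoenzyme that converts thyroxine to the active hormone, was at 125, 182, 167 and 138 CPM at Day 0 and at 31.6, 24.6, 33.1 and 28.9 CPM at Day 5. It fell by 2.37 on the log2 scale (SE 0.21; edgeR adjusted p = 0.00206), and was called in all 8 fits with a library left out. Thrsp, a regulator of lipogenesis that responds to thyroid hormone, was at 145, 313, 188 and 365 CPM at Day 0 and at 30.7, 43.2, 68.4 and 60.2 CPM at Day 5. Elovl6, a fatty acid elongase, was at 76.3 to 191.5 CPM at Day 0 and 39.0 to 49.2 CPM at Day 5. The groups of these lipogenic genes did not overlap either, and they fell by 2.32 (SE 0.36) and 1.60 (SE 0.27) on the log2 scale, with adjusted p of 0.0317 and 0.0428.

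Prlr was at 132, 164, 156 and 158 CPM at Day 0 and at 32.5, 36.9, 56.5 and 61.0 CPM at Day 5. The receptor was evenly expressed in the Day 0 females, and fell by 1.71 on the log2 scale (SE 0.25; edgeR adjusted p = 0.0226). Slc16a1 (MCT1) was at 64.2, 67.4, 90.0 and 59.3 CPM at Day 0 and at 23.8, 15.8, 22.3 and 26.1 CPM at Day 5 (log2 fold change -1.67 ± 0.23, adjusted p = 0.0178). Acsm1, a mitochondrial medium-chain acyl-CoA synthetase, fell from 239 to 440 CPM at Day 0 to between 80.8 and 126 CPM at Day 5 (-1.71 ± 0.27, adjusted p = 0.0336). Tfrc, the transferrin receptor, was at 55.6 to 84.5 CPM and 20.5 to 33.5 CPM (-1.31 ± 0.23, adjusted p = 0.0489), and Trabd2b, a metalloprotease that acts on Wnt ligands, at 143 to 253 CPM and 50.5 to 86.4 CPM (-1.51 ± 0.25, adjusted p = 0.0423).

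Ucp1, the uncoupling protein of brown fat, was at 80.1, 113, 63.2 and 128 CPM at Day 0 and at 9.99, 14.2, 18.1 and 9.46 CPM at Day 5 (log2 fold change -2.89 ± 0.31, adjusted p = 0.00454). Cox8b, a respiratory chain subunit of muscle and brown fat, was at 38.5, 98.5, 133 and 28.9 CPM at Day 0 and at 9.53, 3.31, 11.3 and 9.30 CPM at Day 5 (-3.13 ± 0.54, adjusted p = 0.0489). Both genes are expressed in the fat beside the kidney, and Cidea, also of brown fat, was at 29.2 to 73.0 CPM at Day 0 and 9.78 to 19.8 CPM at Day 5 without passing the test (-1.53 ± 0.34, adjusted p = 0.110). The 15 adipocyte markers, a list that includes Ucp1 and Cidea, summed to 1231 to 2451 CPM at Day 0 and 792 to 2212 CPM at Day 5, and Adipoq (adiponectin) was at 54.6 to 124 and 27.5 to 94.2 CPM. The part of brown fat in the fall of Ucp1 and Cox8b was not tested.

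The other 3 called genes with lower levels span long stretches of the genome. Immp2l, a subunit of the mitochondrial inner membrane peptidase, lies on chromosome 12 from 41024090 to 41955588, a span of 931499 bases. It was at 5.20, 10.8, 10.4 and 4.64 CPM at Day 0 and at 0.681, 0.631, 0.619 and 0.440 CPM at Day 5, and its log2 fold change was -3.70 ± 0.46 (SE; edgeR adjusted p = 0.0114). Gmds, the first enzyme of GDP-fucose synthesis, spans 519162 bases and was at 13.5 to 45.7 CPM at Day 0 and 1.71 to 5.52 CPM at Day 5 (-2.85 ± 0.46, adjusted p = 0.0358). Trappc9, of a vesicle tethering complex, spans 471585 bases and was at 71.7 to 89.1 and 27.0 to 38.3 CPM (-1.29 ± 0.19, adjusted p = 0.0253). Length was not shared by the fallen genes as a whole, since Cox8b spans 1502 bases and Thrsp 4793. Among protein-coding genes that span over 500 kb the median log2 fold change was -0.22 over 131 tested genes. This median was -0.42 without Day 5 replicate 2 and -0.04 without Day 0 replicate 4, so it rests on single libraries. Genes that span under 10 kb also had a median below 0, at -0.15 over 3465 genes, and those of 30 to 100 kb one of 0.12 over 4131. These 2 medians were -0.24 and 0.22 without Day 0 replicate 4.

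**Figure D4:**
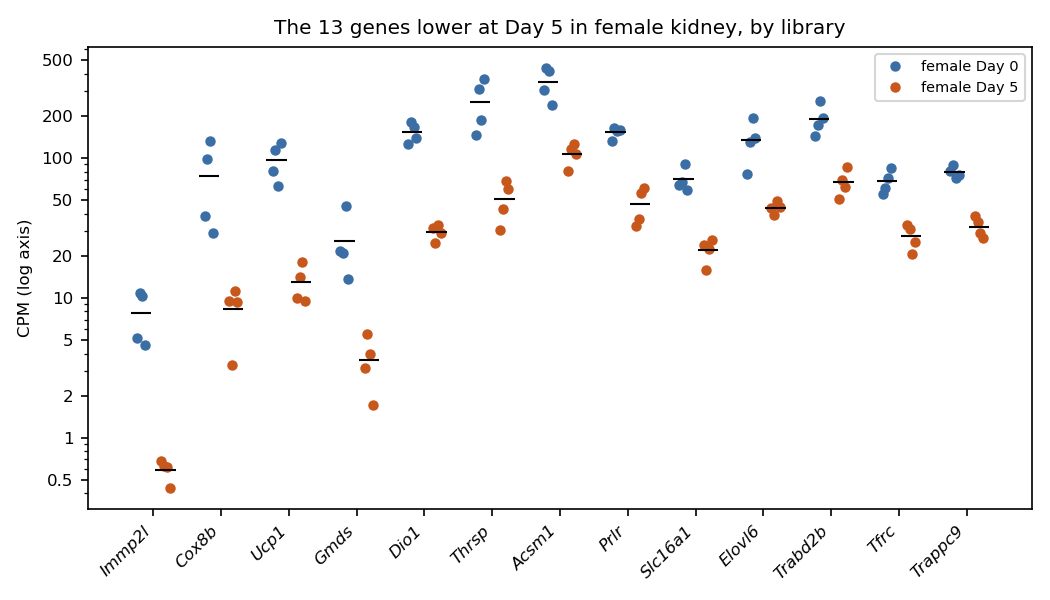
CPM on a log axis of the 13 genes called lower at Day 5, ordered by log2 fold change, with 1 point per library (blue, Day 0; orange, Day 5) and a bar at each mean of 4 libraries. No Day 5 point reaches a Day 0 point of the same gene, from Immp2l (log2 fold change -3.70) to Trappc9 (-1.29).

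With all libraries 0 segment genes of the nephron were called, which is near the 0.275% of all genes. Without Day 0 replicate 4, 6 of 51 proximal tubule, 8 of 33 thick limb and distal tubule, and 4 of 29 collecting duct genes were called lower. Of all 16559 genes 1228 were called lower in that fit. Of the same 3 lists 2, 0 and 1 genes were called higher, against 785 of all genes. With all libraries, of the 51 tested proximal tubule genes 0 were called, 14 had a log2 fold change above 0, and the median was -0.40. It was -0.20 without Day 5 replicate 2, the library with the highest mitochondrial share. Slc34a1 was at 5228, 5392, 4944 and 7543 CPM at Day 0 and at 1502, 1241, 3605 and 4309 CPM at Day 5, groups that did not overlap (log2 fold change -1.12 ± 0.45, adjusted p = 0.280). Lrp2 (megalin, the endocytic receptor) was at 1166 to 1831 CPM and 521 to 1398 CPM (-0.89 ± 0.36, adjusted p = 0.284). The summed level of the proximal list was 35826 to 80021 CPM at Day 0 and 15423 to 32412 CPM at Day 5. Kap, an abundant androgen-regulated proximal protein gene, was at 20410, 27140, 47550 and 4077 CPM at Day 0 and 3936, 2358, 4918 and 2837 CPM at Day 5, so it took a large share of that sum in 3 of the Day 0 libraries. The thick ascending limb and distal tubule list had a median of -0.36 over 33 genes, and 0 of 29 collecting duct genes were called. Vegfa was at 65.8 to 268 CPM at Day 0 and 126 to 165 CPM at Day 5 (0.06 ± 0.38, adjusted p = 0.954), and Kl (klotho) at 375 to 814 and 159 to 506 CPM (-0.81 ± 0.41, adjusted p = 0.373). Of 44 cell cycle genes 0 were called, with Mki67 at 1.43 to 3.80 CPM and 1.58 to 4.04 CPM.

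Some lists lay off the median of all genes (0.04) with at most 1 called gene. Of 23 tested genes of cholesterol synthesis and uptake, 2 had a log2 fold change above 0, 0 were called, and the median was -0.60. In this list 7 genes had groups that did not overlap in the lower direction and 1 in the higher, against 3.54% and 5.02% of all genes. The largest differences in it were those of Insig1 (-1.49 ± 0.29, adjusted p = 0.0804) and Cyp51 (-1.38 ± 0.32, adjusted p = 0.117). The nuclear genes of the respiratory chain had a median of -1.04 over 84 tested genes, 3 of them above 0 and 1 called (Cox8b), and the ribosomal protein genes a median of -0.75 over 83, with 0 called. Immediate early genes had a median of 0.73 over 26, with 0 called. Day 0 replicates 3 and 4 lay at opposite ends of the first principal component among the Day 0 libraries (-171 and 44.3). The median of the ribosomal protein genes was -0.43 without replicate 3 and -1.05 without replicate 4, that of the respiratory chain -0.78 and -1.34, and that of the immediate early genes 0.58 and 1.49. The transcription factor Jun was at 31.5, 27.2, 18.9 and 252 CPM at Day 0 and 119, 76.4, 149 and 184 CPM at Day 5, and the ATP synthase subunit Atp5e at 683, 1471, 3815 and 299 CPM at Day 0 and 278, 195, 411 and 219 CPM at Day 5. Without Day 0 replicate 4, 54 of 84 respiratory chain, 25 of 83 ribosomal protein and 9 of 23 cholesterol genes were called lower, and 1 of each list higher. Of 26 immediate early genes 12 were called higher and 1 lower. Of all genes 12.2% were called in either direction in that fit. Over the same 7 libraries the p53 list had 22 of 40 genes called higher and 0 lower.

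**Figure D5:**
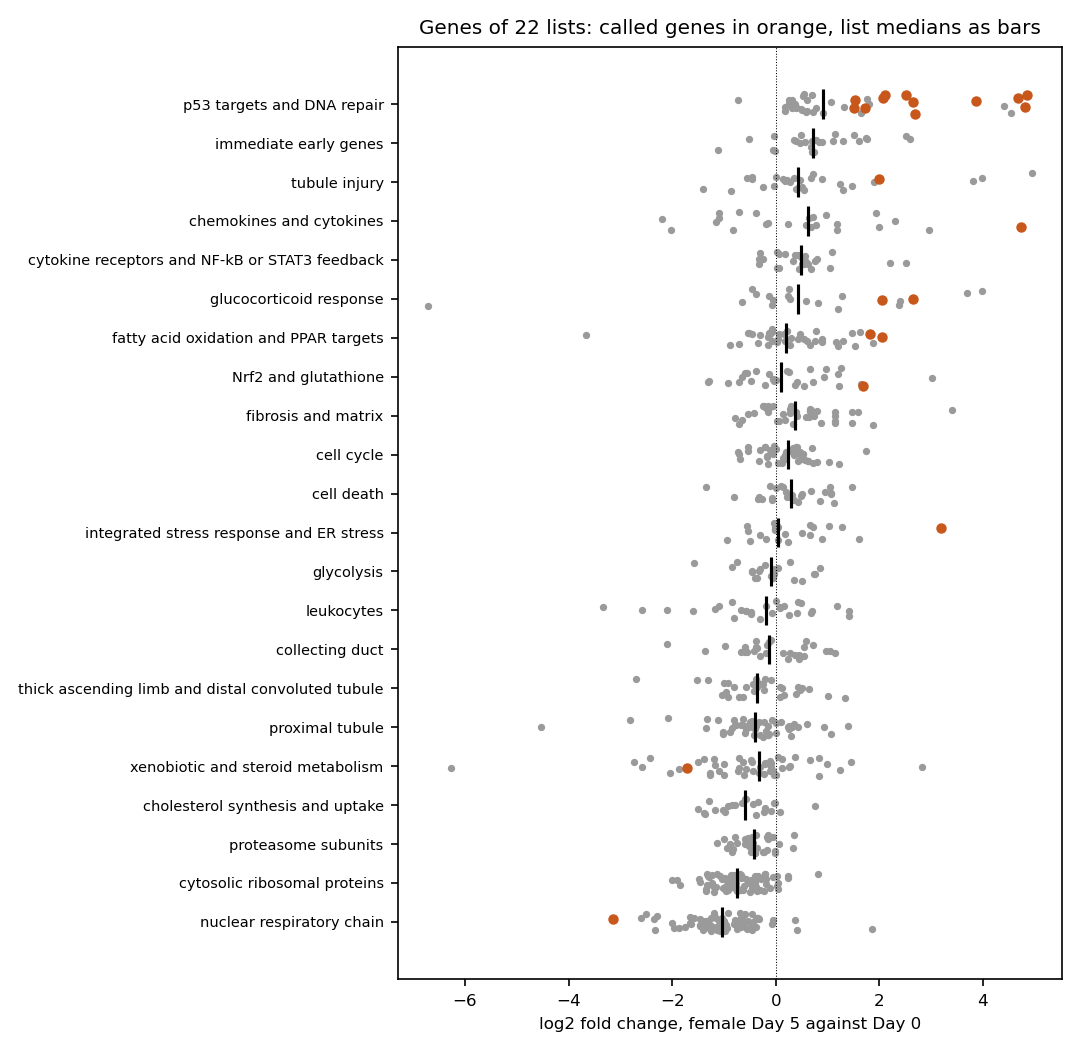
Log2 fold change of female Day 5 against Day 0 for the tested genes of 22 lists, 1 point per gene, called genes in orange and a bar at each list median. The p53 list holds 12 called genes and a median of 0.91, and the nuclear respiratory chain, at -1.04, lies lowest.

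The earlier days show how the Day 5 genes stood along the course. The fold changes for Day 2, Day 3 and Day 5 share the same Day 0 libraries, so they are given side by side only. Over all genes 291 of 16641 were called at Day 2 (1.75%) and 775 of 16873 at Day 3 (4.59%). For Cdkn1a they were 4.34, 4.21 and 3.87 on the log2 scale, for Ccng1 2.54, 2.27 and 2.07, for Gdf15 2.72, 3.01 and 3.20, and for Plk2 2.65, 2.45 and 2.52. Havcr1 had mean levels of 0.761, 6.00, 41.0 and 10.1 CPM at Day 0, 2, 3 and 5, and Lcn2 5.41, 17.3, 116 and 84.4 CPM, each with a range at Day 3 that covered the Day 5 mean. Dio1 had means of 163, 46.4, 60.9 and 31.3 CPM. In the direct test of Day 5 against Day 3, which does not use the Day 0 libraries, edgeR called 0 of 16764 genes (smallest adjusted p = 0.404), with 1965 genes at an unadjusted p under 0.05, while DESeq2's Wald test called 11 DEGs. Of the 45 genes Slc16a1 and Tfrc had the lowest unadjusted p there, with log2 differences of -0.82 ± 0.17 and -0.92 ± 0.23 and an edgeR adjusted p of 0.404 each. Havcr1 had a mean at Day 5 below that at Day 3, with an adjusted p of 0.425. Day 3 replicate 2 stood apart from the other Day 3 libraries, at 30.1 CPM of Cdkn1a (others 394 to 477), 210.0 CPM of Ccng1 (others 982 to 1070) and 47.9 CPM of Mdm2 (others 133 to 167). The other 3 Day 3 libraries were above all Day 5 libraries for Ccng1, which were at 496.5 to 912 CPM. With that library included the differences from Day 3 were -0.34 ± 0.64, -0.21 ± 0.42 and -0.22 ± 0.34 for Cdkn1a, Ccng1 and Mdm2, and without it edgeR called 0 DEGs in that test.

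Males were compared to ask whether the Day 5 change differed by sex. The 4 male Day 5 libraries had 42.5% to 79.8% of their counts on the mitochondrial genome, and the library labelled male Day 5 replicate 1 held 4153 Xist counts beside 387 Y-linked counts, against its label. The interaction of sex and day was called for 31 of 17257 genes (0.18%), and without that library for 1233 of 17828 (6.92%). It was called for 0 genes without female Day 0 replicate 2, female Day 5 replicate 1 or 3, or male Day 5 replicate 2, 3 or 4, so the calls rest on single libraries. Among the 45 called genes it was called for 1 with all libraries, Immp2l, and for 11 without male Day 5 replicate 1, which were Immp2l, Gdf15, Ces2e, Fkbp5, Plk2, Angptl4, Cyp4a10, Nqo1, Zmat3, Elovl6 and Cox8b. Gdf15 then had a female minus male difference of 2.26 (adjusted p = 0.0201), and Nqo1 of 2.30 (adjusted p = 0.00199). With all libraries Immp2l was at 3.89 to 10.3 CPM in Day 0 males and 2.47 to 8.87 CPM in Day 5 males, a female minus male log2 difference of -3.58 ± 0.64 (SE; edgeR adjusted p = 0.0275). For Cdkn1a the difference was 0.65 ± 0.66 and for Abcb1b -0.31 ± 0.73, with adjusted p of 0.723 and 0.899. The male comparison, which shares no library with the female one, called 2823 of 15441 genes (18.3%), and 22 genes were called in both, which is 22 of the 45 female genes and 22 of the 2823 male genes. The largest positive difference was that of Cyp4b1. This cytochrome P450 gene was at 217 to 755 CPM in Day 0 females and 176.5 to 569 CPM in Day 5 females, but at 2880 to 5086 CPM in Day 0 males and 53.6 to 328 CPM in Day 5 males, and the difference in change was 5.13 ± 0.84 (adjusted p = 0.0241).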

How the data were processed

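Bulk RNA-seq of whole kidney was sequenced as 150 bp paired ends by the study. The deposited gene counts are whole, unnormalized read counts made by the authors, whose processing notes name HTSeq and DESeq2 and the builds GRCm39 and mm39, while the gene coordinates in the file match GRCm38 and are printed as such. Whether counting used strand is not given in the sources used here. The authors' FPKM table was not used here.

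The 37 genes of the mitochondrial genome were removed from the 54532 genes, low genes were dropped by filterByExpr, libraries were scaled by TMM, and Day 5 was compared with Day 0 by edgeR's quasi-likelihood test (edgeR 4.0.16, R 4.3.3, robust) with Benjamini-Hochberg adjustment at 0.05. Total counts per library were 18775424 to 35961325. The nuclear counts left, which set the precision of low genes, were 5340637 to 34345113. P-values measure the spread between these mice only. CPM in the time course and sex comparisons were scaled over the libraries of each, so they differ slightly from those of the main comparison. DESeq2 1.42.0 and limma 3.58.1 were run as alternatives, with other filters and scalings, the replicate number as a block, and each library left out. The scripts were tested on simulated data.

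The genes named were for each direction the 10 most changed DEGs that code for protein and whose groups did not overlap, up to 4 called genes per list, 27 genes of the injury literature whatever their values (a further gene of that rule is not reported here), and the 5 largest sex differences in each direction. The members and lists were chosen with earlier results of these data known. Other called genes and list members that did not pass were named after their values were seen.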

Additional observations from a re-analysis of the deposited data

Results flagged for a closer look

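Among 168 groups of 4 libraries, 13 held a library far from the other 3 by Dixon's criterion at the 95% level, which chance reaches in about 1 in 20 groups. At Day 0, replicate 3 had 0 CPM of Psrc1 (others 0.702 to 0.844) and 2.48 CPM of Hmox1 (others 16.8 to 19.4). Day 0 replicate 4 had 25.7 CPM of Nqo1 (others 43.6 to 44.9), 814 CPM of Kl (others 375 to 421) and 920.3 CPM of summed podocyte markers (others 585 to 640.2). Day 0 replicate 2 had 18943 CPM of hepatocyte markers (others 220 to 856). At Day 5, replicate 1 had 61.7 CPM of Ccl6 (others 8.80 to 16.9) and 3.63 CPM of Top2a (others 1.42 to 1.76). Day 5 replicate 2 had 77.5 CPM of Nqo1 (others 139.7 to 147) and 875 CPM of adrenal cortex markers (others 1960.3 to 2182), and was high in endothelial genes with Vegfa (1947 CPM, others 1134 to 1262), in erythroid markers (2014 CPM, others 92.3 to 166) and in genes resembling ribosomal RNA (36764 CPM, others 8774 to 11414).

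The Day 5 change differed between the sexes for 31 genes by the interaction test of edgeR. The female minus male log2 difference was 5.13 for Cyp4b1, 4.15 for Ugt2b38, 3.64 for Mogat1, 3.38 for Frzb and 3.35 for Ces1f. It was -5.15 for Nkg7, -4.54 for Sfrp5, -4.05 for Psca, -3.73 for Upk3b and -3.58 for Immp2l. The library labelled male Day 5 replicate 1, whose Xist count goes against its label, entered these differences.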

How the results depend on the processing

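The number of DEGs (40; 29 higher, 11 lower) was 418 (162 higher, 256 lower) by DESeq2's Wald test, 701 (448 and 253) by limma voom with quality weights, 140 (64 and 76) without a filter, 675 (220 and 455) in 1 fit over all 8 groups, and 505 (221 and 284) without Day 0 replicate 4 and Day 5 replicate 2. Leaving out 1 library gave 8 to 688 DEGs, 6 to 305 higher and 2 to 383 lower, with 688 without Day 0 replicate 4, 12 without Day 0 replicate 1, and 9, 8 and 12 without Day 5 replicates 1, 3 and 4. The causes were not tested. All 45 called genes kept their direction in each of these 8 fits, which their groups without overlap all but fix in advance. Kept mitochondrial genes gave 37, removed ribosomal RNA-like genes 41, DESeq2 size factors 39 and a minimum of 10 counts 44. Day 5 against Day 3 gave 11 DEGs by DESeq2 and 1 with the replicate block. Same-numbered libraries correlated at -0.04 to 0.25, so the numbers were not taken as pairs, and the replicate block gave 33 DEGs, 27 of them among the 40. The sex difference was called for 649 genes by DESeq2, 5472 by voom, 48 without a filter, 73 with 10 counts, 1313 in 1 fit, 242 without both libraries and 0 to 1233 with 1 left out. Directions turned for Spp1 (-0.0093 without Day 5 replicate 1, 0.41 at most with a library left out and 0.48 by voom) and Vegfa (-0.014 in 1 fit, -0.18 to 0.63 with libraries left out). Genes under about 1 CPM at Day 0 rest on few counts.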
